A study of Mus musculus with 12 samples.

Results

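The chaperones of the endoplasmic reticulum (ER) that work with Hspa5 were followed in the islets of Langerhans of mice with or without a foreign secretory-pathway antigen. The 10 genes were chosen by name (Hspa5, Hsp90b1, Calr, Canx, Hyou1, Dnajb9, Dnajb11, Dnajc3, Sdf2l1 and Creld2) and matched by Ensembl identifier. The choice was made with earlier results of these data known. All 10 were found among the 38561 genes counted, and all 10 passed the filter on low counts with 15352 genes in all. Islets were isolated from 12 male mice, 3 in each of 4 groups, and the RNA of each mouse was sequenced as a library of its own. NOD_insHEL mice had the NOD/LtJ background and the transgene Tg(ILK3mHEL)3Ccg, which expresses hen egg lysozyme from an insulin promoter, and NOD mice had the same background without it. B10_insHEL mice carried that transgene on the C57BL/10SnSg background, and B10 mice were C57BL/10SnSg without it. All 4 groups were 11 weeks old, were Rag-/- by the targeted Ragtm1Mom allele, which blocks the formation of mature lymphocytes, carried the MHC k haplotype and were normoglycemic. An insulin promoter is active in beta cells, whereas whole islets with all their cell types were sequenced. The lysozyme transcript itself was not analysed here.

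The ER is where insulin and other secreted proteins fold, and a beta cell devotes a large share of its protein synthesis to a single secreted product. Hspa5 encodes BiP, the Hsp70 of the ER, which holds unfolded chains and also binds the stress sensors of the unfolded protein response until client proteins draw it away. When the sensors are released, the transcription factors Atf6 and Xbp1 raise the transcription of chaperone genes, in part through the ER stress response element (ERSE), a promoter motif bound together with the general factor NF-Y.

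Hspa5 (ENSMUSG00000026864) lies at chr2:34771970-34777547 on the plus strand of GRCm38. The 10 genes lie on 9 chromosomes, with Dnajb11 and Sdf2l1 both on chromosome 16. Promoter sequences of 9 of the 10 were taken from RefSeq on GRCm38.p6, as the 250 bases before the annotated start, with Hyou1 not matched. The ERSE was searched on both strands as CCAAT and CCACG separated by 9 bases of any kind. It occurred in 6 of the 9 promoters, with 2 matches in Hsp90b1 and 1 each in Hspa5, Calr, Canx, Dnajc3 and Creld2, against 0.113% of 32851 promoters of the same length (37 promoters). The related ERSE-II, searched as ATTGG and CCACG separated by 1 base, was in 0 of the 9 and in 0.0304% of all promoters, and the letters TGACGTGG of the Xbp1-bound element were in 0 of the 9 and in 0.563%. The 5 letters CCAAT alone, which every ERSE contains, were in 9 of 9 and in 33.8% of all. A match is a description of letters and not a bound site. The genes were chosen by name as ER chaperones, the kind of gene this element is known to serve. The contrast with all promoters is therefore not a test of enrichment. The 7 matches are given first, each read on the strand that carries CCAAT first, with the fixed letters in capitals and the 9 free positions in lower case, since the free letters are what distinguishes them.
Hspa5 (chr2:34772025-34772043): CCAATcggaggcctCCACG
Hsp90b1 (chr10:86705638-86705656): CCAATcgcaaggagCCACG
Hsp90b1 (chr10:86705533-86705551): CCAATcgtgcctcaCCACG
Calr (chr8:84847075-84847093): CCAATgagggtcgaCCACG
Canx (chr11:50325800-50325818): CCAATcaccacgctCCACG
Dnajc3 (chr14:118937827-118937845): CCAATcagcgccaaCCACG
Creld2 (chr15:88819520-88819538): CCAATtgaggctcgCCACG
The Hspa5 match lies on the gene's own strand, 47 to 65 bases before the start, at chr2:34772025-34772043, counted from the RefSeq start. The gene positions are those of GENCODE, whose start of Hspa5 lies upstream of the RefSeq one, so this match falls inside the GENCODE gene. The Dnajb9 window lies wholly inside its GENCODE gene and those of Hsp90b1 and Calr overlap theirs in part, with their matches outside. Those of Canx and Dnajc3 and the more distant one of Hsp90b1 are also on the gene's own strand, while those of Calr and Creld2 and the nearer one of Hsp90b1 are on the opposite strand. The middle letters differ between all 7. The whole windows of 4 genes follow, 5′ to 3′ on the strand of the gene with ERSE letters in capitals. Hspa5 is the central gene, Creld2 had the highest log2 difference with the transgene in B10, Sdf2l1 had the next highest with no match, and Canx has a match but did not pass the test in either strain.
Hspa5 promoter (chr2:34771840-34772089, plus strand): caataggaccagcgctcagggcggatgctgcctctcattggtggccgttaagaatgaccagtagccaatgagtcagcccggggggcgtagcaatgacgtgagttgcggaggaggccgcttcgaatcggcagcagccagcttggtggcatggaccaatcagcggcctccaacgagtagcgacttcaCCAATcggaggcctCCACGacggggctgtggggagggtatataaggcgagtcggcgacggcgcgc
Creld2 promoter (chr15:88819396-88819645, plus strand): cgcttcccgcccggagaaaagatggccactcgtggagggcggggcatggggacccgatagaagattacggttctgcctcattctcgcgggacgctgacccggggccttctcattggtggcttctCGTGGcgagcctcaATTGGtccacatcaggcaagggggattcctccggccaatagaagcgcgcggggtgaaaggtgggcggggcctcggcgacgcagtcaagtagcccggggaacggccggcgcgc
Sdf2l1 promoter (chr16:17132384-17132633, minus strand): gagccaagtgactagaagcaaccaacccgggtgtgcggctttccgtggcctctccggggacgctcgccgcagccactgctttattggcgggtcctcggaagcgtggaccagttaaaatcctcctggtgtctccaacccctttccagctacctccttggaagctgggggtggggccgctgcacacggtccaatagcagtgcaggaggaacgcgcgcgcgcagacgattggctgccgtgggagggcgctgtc
Canx promoter (chr11:50325674-50325923, minus strand): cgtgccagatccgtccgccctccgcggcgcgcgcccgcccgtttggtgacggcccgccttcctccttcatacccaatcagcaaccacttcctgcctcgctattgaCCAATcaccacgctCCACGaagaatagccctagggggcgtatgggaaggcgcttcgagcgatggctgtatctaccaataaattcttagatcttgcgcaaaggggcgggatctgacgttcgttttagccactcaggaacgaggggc

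**Figure D1:**
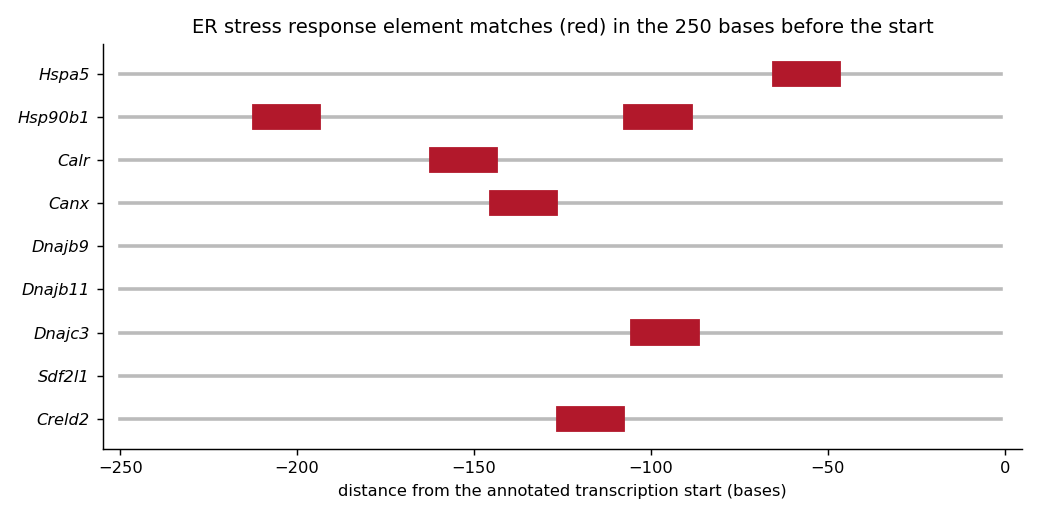
Position of ERSE matches (red) within the 250 bases before the annotated start (grey lines), for the 9 genes with a promoter in the RefSeq table. The horizontal axis is the distance from the start in bases. Matches lie between 47 and 212 bases before the start in 6 genes, and Dnajb9, Dnajb11 and Sdf2l1 have none.

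Genes with an ERSE in this window were few. Beyond the 6 members, 29 other genes carried one, of which 11 were tested. In B10_insHEL against B10, 2 of these 11 were higher, namely Derl3 and Pdia6, and 1 was lower (Pan2), against 4.09% of all tested genes called higher and 2.76% called lower. In NOD_insHEL against NOD, Pdia6 was higher and Pan2 lower, against 3.88% of all tested genes called higher and 3.18% called lower. The median log2 difference of the 11 was −0.0091 in B10 and 0.12 in NOD.

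The chaperone transcripts were abundant. Levels in CPM, which are counts relative to the library's TMM-scaled total (trimmed mean of M values), summed over the 10 genes to 8126 to 9882 in NOD_insHEL islets, 5824 to 6024 in NOD islets, 9298 to 14415 in B10_insHEL islets and 6215 to 7487 in B10 islets. Neither pair of groups that differ by the transgene overlapped in this sum. Per kilobase of exon, averaged over all 12 libraries, Hspa5 had 557 CPM per kb, with libraries between 355 and 1062, and ranked 25 among 15191 tested genes with a length. Hsp90b1, the Hsp90 of the ER, followed with 451 and Calr, the soluble lectin chaperone, with 371 CPM per kb. Hspa5 ranked above Hsp90b1 in all libraries except B10 replicates 1 and 3, and Calr ranked above Hsp90b1 in all NOD libraries and NOD_insHEL replicate 3, so the order of these 3 genes is not the same in every library. Dnajb9 averaged 186, Canx 169.8, Sdf2l1 133, Dnajc3 119.7 and Hyou1 118 CPM per kb, with ranges over the 12 libraries that overlap. Dnajb9 ranked above Sdf2l1 and Hyou1 in all 12 libraries, and Canx above Dnajc3, whereas other pairs, such as Canx and Dnajb9, changed order between libraries. Creld2 had 83.4 and Dnajb11 49.2 CPM per kb, the lowest on average, with Dnajb11 in place 10 in 11 of 12 libraries. Between the lowest and the highest library the level differed most for Creld2 (5.20-fold) and Sdf2l1 (4.11-fold), and least for Canx (2.05-fold).

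**Figure D2:**
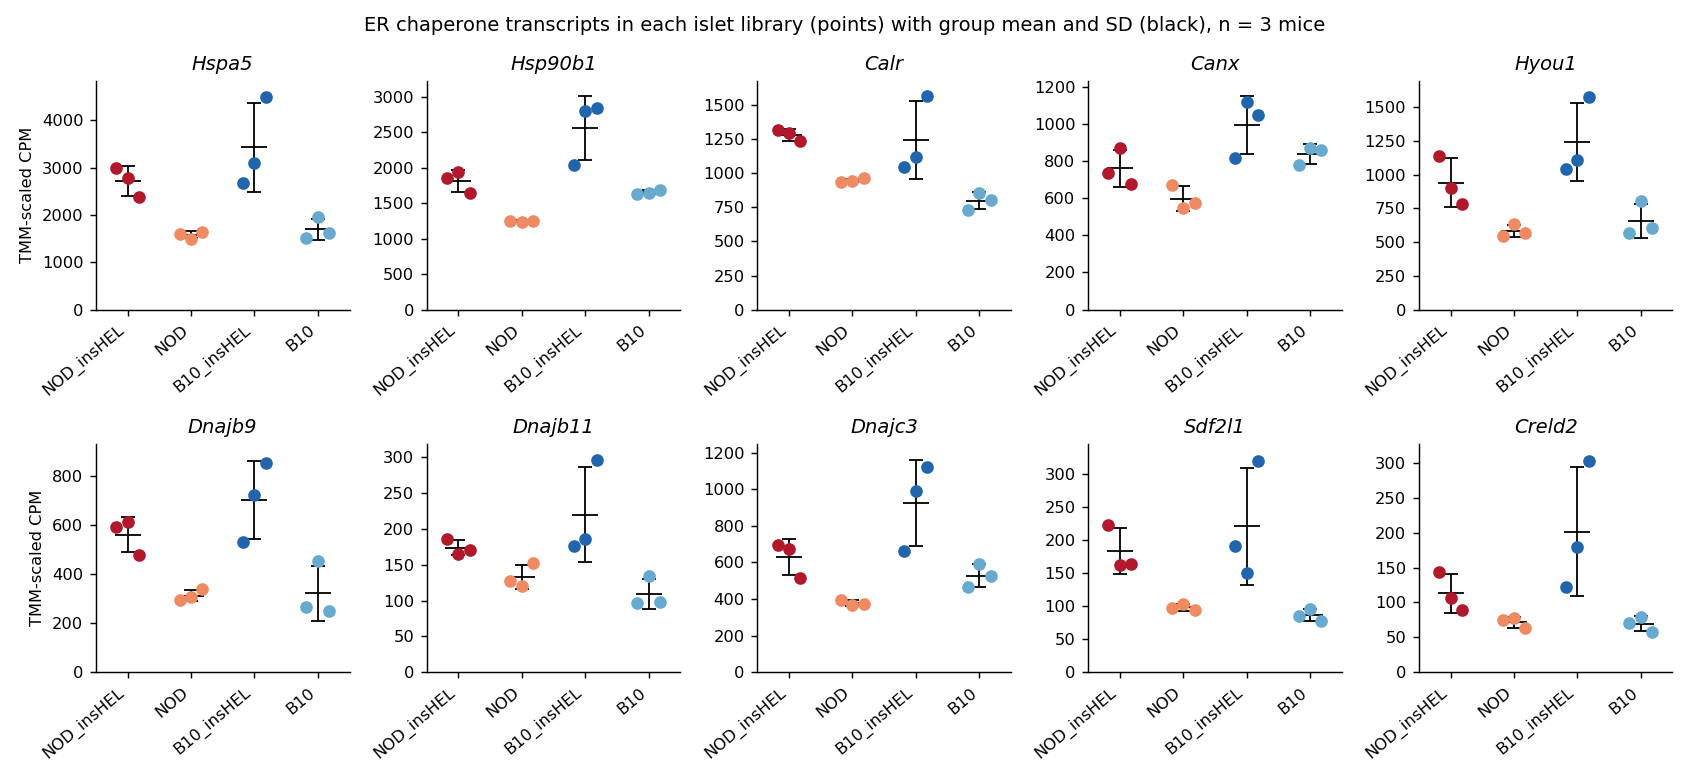
TMM-scaled CPM (vertical axes, from 0) of the 10 chaperone genes in each of the 12 libraries, by group. Points are mice, and black marks are the group mean and SD (n = 3). In each gene except Canx the B10_insHEL points lie above all B10 points, and in all 10 genes the NOD_insHEL points lie above all NOD points.

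Library totals ranged from 2212062 counts in NOD_insHEL replicate 3 to 21138456 in B10 replicate 2. All 10 beta cell markers were tested, and their summed level was 262028 to 294117 CPM in NOD_insHEL, 254434 to 261884 in NOD, 205209 to 273661 in B10_insHEL and 183776 to 204970 CPM in B10. Ins1 and Ins2, which are among these markers, made up 15.8 to 25.6% of all counts, so the sum chiefly follows them. The list of 10 lymphocyte and plasma cell markers summed to 7.26 to 7.98 CPM in NOD_insHEL, 11.6 to 14.4 in NOD, 4.54 to 8.06 in B10_insHEL and 6.71 to 9.01 CPM in B10. Of these, Cd3e, Cd3d and Ms4a1 had 0 counts in all 12 libraries, and 3 were tested, 1 of which was higher in NOD than in B10. Rag2 had 0 counts in all 12 and Rag1 had 13 to 141 counts, and the labels do not say which Rag gene carries the allele. The 20 markers of acinar cells, the enzyme-secreting cells around islets, summed to 59.5 to 110 CPM in NOD_insHEL, 157 to 277 in NOD, 45.5, 72.6 and 2501 in B10_insHEL, and 3590 to 4609 CPM in B10. B10_insHEL replicate 2 is the library at 2501 and stands apart from its group in this. The 7 alpha cell markers summed to 6034 CPM in B10 replicate 3, against 32636 and 29414 CPM in B10 replicates 1 and 2. They summed to 7425 CPM in NOD replicate 2, against 22863 and 21244 CPM in NOD replicates 1 and 3. NOD_insHEL had 21004 to 30385 CPM and B10_insHEL 23620 to 31742 CPM. The total islet number was lowest for B10 replicate 3, at 20, and highest for NOD replicate 2, at 137. Prss1 had 1 count in all and was not tested. The labels number the 3 B10 samples above 100 and the other 9 from 1 to 29. If these numbers mark a batch, it cannot be told apart from the group wherever B10 is compared, whereas NOD_insHEL against NOD and NOD_insHEL against B10_insHEL lie within the numbers 1 to 29.

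The transgene comparison asks whether islets that express lysozyme carry more chaperone transcripts than islets of the same strain without it. In B10_insHEL islets 9 of the 10 chaperones were higher than in B10 islets and 0 lower, against 4.09% of all tested genes called higher there, 2.76% called lower and 6.85% called in either direction (edgeR quasi-likelihood test, Benjamini-Hochberg adjusted p under 0.05). The exception was Canx. In NOD_insHEL islets 7 of 10 were higher than in NOD islets and 0 lower, against 3.88% called higher, 3.18% called lower and 7.06% called in either direction. The exceptions were Canx, Dnajb11 and Creld2. These genes and the gene lists below were chosen with earlier results of these data known. The shares of all genes are therefore given for comparison and not as a test of the lists. The p-values rest on the spread between mice of the same group, 3 in each. The model pools this spread over all 4 groups and moderates it across genes, so it is not that of the compared groups alone. The median log2 difference of the 10 was 0.96 in B10 and 0.69 in NOD, while that of all tested genes was −0.00035 and −0.0062. Libraries did not overlap between B10_insHEL and B10 for 9 chaperones (13.1% of all tested genes lay wholly higher) and between NOD_insHEL and NOD for 10 of 10 (13.3%). In these bulk samples, fewer cells of a type and less RNA per cell cannot be told apart.

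Hspa5 had 2676, 3108 and 4493 CPM in B10_insHEL replicates 1 to 3, against 1523, 1955 and 1612 CPM in B10 replicates 1 to 3. It had 2997, 2771 and 2379 CPM in NOD_insHEL, against 1596, 1503 and 1643 CPM in NOD. Every transgenic library was above every non-transgenic one of either strain, and B10_insHEL replicate 3 was the highest of the 12. The gene was 2.02-fold higher in B10_insHEL than in B10 (log2 difference 1.01, SE 0.16, adjusted p = 8.32e-04) and 1.72-fold higher in NOD_insHEL than in NOD (log2 difference 0.78, SE 0.16, adjusted p = 0.00848). Hyou1 encodes the large Hsp70-like protein that exchanges the nucleotide of BiP. Its levels were 1041, 1111 and 1575 CPM in B10_insHEL and 566, 801 and 607 CPM in B10. In the other strain they were 1139.5, 901 and 781 CPM in NOD_insHEL and 545, 632 and 566 CPM in NOD. Neither pair overlapped, and the gene was higher with the transgene in B10 (log2 difference 0.92, SE 0.17, adjusted p = 0.00384) and in NOD (log2 difference 0.70, SE 0.17, adjusted p = 0.0221).

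Hsp90b1 takes over partly folded clients from BiP. It had 2036, 2798 and 2837 CPM in B10_insHEL, against 1629.9, 1650.2 and 1689 CPM in B10. NOD_insHEL had 1856, 1934 and 1640.1 CPM and NOD 1245, 1228 and 1256 CPM. The 3 NOD libraries were nearly equal and were the 3 lowest of the 12, and the 3 B10_insHEL libraries were the 3 highest. The gene was higher in B10_insHEL than in B10 (log2 difference 0.63, SE 0.12, adjusted p = 0.00366) and in NOD_insHEL than in NOD (log2 difference 0.54, SE 0.12, adjusted p = 0.0122). Exons of Hsp90b1 overlap those of 1810014B01Rik on the opposite strand and of Gm15344 and Gm25745 on its own, and 9.75% of the 50-base words of its transcripts occur in another annotated gene, so part of its count depends on how the authors assigned reads.

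Calr and Canx encode the lectin chaperones, soluble calreticulin and membrane-bound calnexin, which hold glycoproteins by their trimmed sugar chains. Calr had 1044, 1119 and 1570.4 CPM in B10_insHEL, against 734, 858 and 804 CPM in B10. It had 1315, 1295 and 1233 CPM in NOD_insHEL and 936, 941 and 963 CPM in NOD. Both pairs were separate, and Calr was higher in B10_insHEL than in B10 (log2 difference 0.64, SE 0.13, adjusted p = 0.00441) and in NOD_insHEL than in NOD (log2 difference 0.44, SE 0.13, adjusted p = 0.0428). Canx had 817, 1117 and 1049 CPM in B10_insHEL and 777, 871 and 861 CPM in B10. The lowest B10_insHEL library lay among the B10 ones, and the difference did not reach the threshold (log2 difference 0.25, SE 0.13, adjusted p = 0.265, 95% interval −0.018 to 0.52). In NOD_insHEL it had 737, 870.2 and 674 CPM, against 671, 544 and 575 CPM in NOD, which did not overlap but also did not reach the threshold (log2 difference 0.35, SE 0.13, adjusted p = 0.09997, 95% interval 0.083 to 0.62).

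Dnajb9, Dnajb11 and Dnajc3 encode J-domain cochaperones, which stimulate the ATPase of BiP and bring it clients. Dnajb9 had 531, 723 and 851 CPM in B10_insHEL and 265, 451 and 248 CPM in B10, where replicate 2 stood above the other two. NOD_insHEL had 589.8, 614 and 479 CPM and NOD 293, 306 and 339 CPM. The groups of each strain were separate, and Dnajb9 was higher in B10_insHEL than in B10 (log2 difference 1.12, SE 0.22, adjusted p = 0.0109) and in NOD_insHEL than in NOD (log2 difference 0.85, SE 0.22, adjusted p = 0.0408). Dnajb11 had 176, 186 and 296 CPM in B10_insHEL, against 96.7, 134 and 98.7 CPM in B10, and was higher there (log2 difference 1.00, SE 0.18, adjusted p = 0.00366). It had 186, 165 and 171 CPM in NOD_insHEL and 127, 120.5 and 152 CPM in NOD, close but not overlapping, and did not reach the threshold (log2 difference 0.39, SE 0.18, adjusted p = 0.206, 95% interval 0.0060 to 0.77). Of Dnajb9, 5.5% of the 50-base words are shared, all with Gm6568, and an exon overlaps Mir5627 on the opposite strand. For Dnajc3 the values were 662, 991 and 1120.2 CPM in B10_insHEL and 467, 592 and 524 CPM in B10. They were 696, 675 and 516 CPM in NOD_insHEL and 397, 369 and 374 CPM in NOD. Neither pair overlapped, and Dnajc3 was higher in B10_insHEL (log2 difference 0.81, SE 0.16, adjusted p = 0.00492) and in NOD_insHEL (log2 difference 0.73, SE 0.16, adjusted p = 0.0131).

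Sdf2l1 and Creld2 were the least abundant by count beside Dnajb11, and had the highest log2 differences in B10. Sdf2l1, a partner of BiP and its J-domain cochaperones, had 192, 150.5 and 321 CPM in B10_insHEL, against 85.5, 96.2 and 78.1 CPM in B10. NOD_insHEL had 223, 163 and 164 CPM and NOD 98.0, 104.1 and 93.9 CPM. All transgenic libraries of both strains were above all others, and Sdf2l1 was 2.55-fold higher in B10_insHEL than in B10 (log2 difference 1.35, SE 0.23, adjusted p = 0.00598) and 1.86-fold higher in NOD_insHEL than in NOD (log2 difference 0.90, SE 0.24, adjusted p = 0.0427). Creld2, an ER protein with disulfide isomerase activity, had 123, 179.6 and 303 CPM in B10_insHEL and 70.6, 79.8 and 58.1 CPM in B10, a 2.90-fold difference (log2 difference 1.54, SE 0.31, adjusted p = 0.0196). Its B10_insHEL mice were widely spread, with replicate 3 the highest of the 12 and replicate 1 the lowest of its group, and all lay above B10. In NOD_insHEL it had 144, 107 and 88.7 CPM, against 74.7, 77.1 and 63.1 CPM in NOD, which did not reach the threshold (log2 difference 0.67, SE 0.31, adjusted p = 0.229, 95% interval −0.026 to 1.37) although the groups did not overlap.

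**Figure D3:**
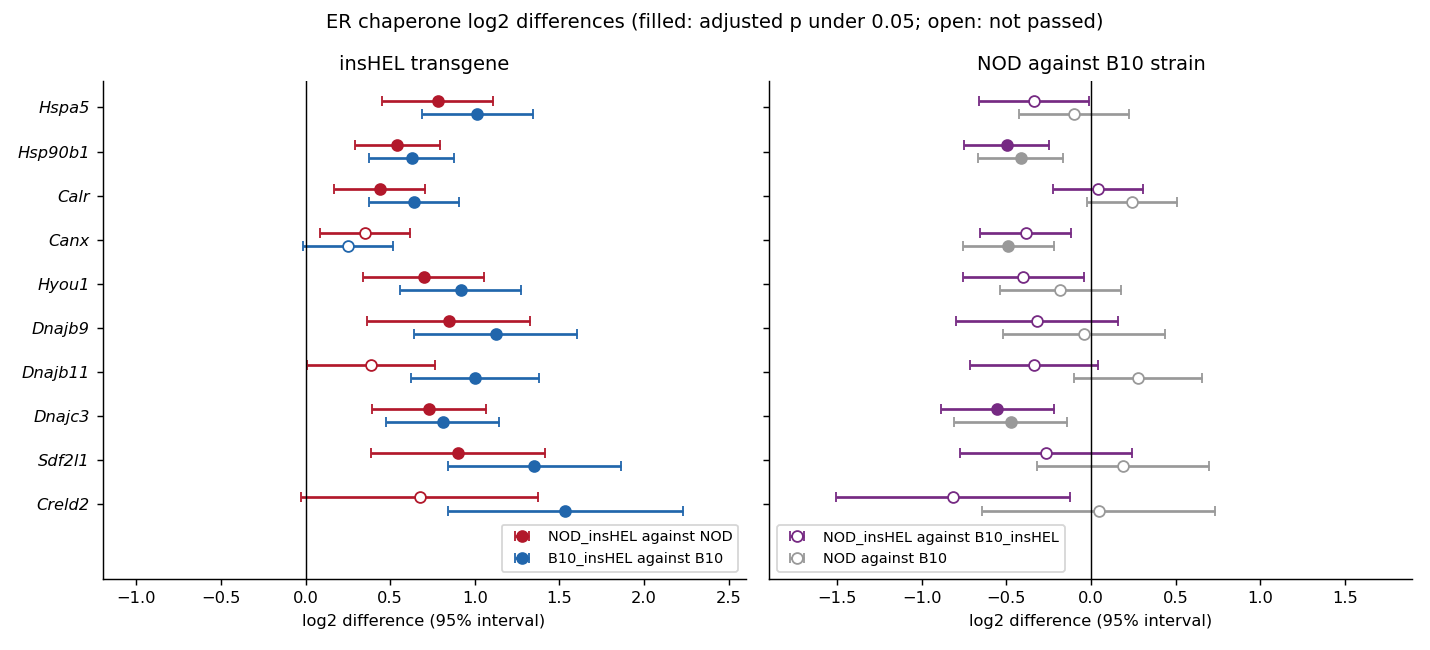
Log2 differences of the 10 chaperones with 95% intervals for the transgene within each strain (left) and for NOD against B10 strain with and without the transgene (right). Filled points passed an adjusted p under 0.05 and open points did not. On the left 9 B10 and 7 NOD points are filled, all above 0. On the right the filled points are Hsp90b1 and Dnajc3 in both comparisons and Canx in NOD against B10, all below 0.

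Markers of other cell types moved with these comparisons. In B10_insHEL against B10, 19 of 19 tested acinar markers lay wholly lower in B10_insHEL and 0 passed the test. Of the 10 beta cell markers 2 were higher and 2 lower in B10_insHEL, with a median log2 difference of −0.23. Their summed level, given above and carried chiefly by Ins1 and Ins2, was higher by a narrow margin in the lowest B10_insHEL library than in the highest B10 one. With the mean log2 level of the acinar markers as a covariate, the members' median log2 difference in B10 was 0.73 and 1 of 10, Hsp90b1, passed. In that fit Hspa5 had a log2 difference of 0.80 (SE 0.22), Dnajc3 0.86 (SE 0.23) and Sdf2l1 0.72 (SE 0.25). Without B10_insHEL replicate 2, the library high in acinar markers, 9 of 10 passed. The libraries left in that group had 72.6 and 45.5 CPM of acinar markers, against 3590 to 4609 CPM in B10. In that fit acinar content therefore cannot be told apart from the transgene. In NOD_insHEL against NOD, 5 of 8 endothelial markers fell, with a summed level of 936 to 1117 CPM in NOD_insHEL and 1225 to 1730 CPM in NOD, as did 3 of 7 duct markers, with 242 to 254 CPM in NOD_insHEL and 311 to 387 CPM in NOD. None of these markers was at 0 in all libraries of a group, and the part of endothelial, duct, alpha and beta cells in the result was not tested. There 13 of 19 acinar markers lay wholly lower in NOD_insHEL and 0 passed, and with the acinar covariate 5 of 10 chaperones passed in NOD with a median of 0.62.

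The number of calls in NOD moved with single libraries. In NOD_insHEL against NOD the number of chaperones called higher was 0 without NOD_insHEL replicate 1, 1 without NOD_insHEL replicate 2 or NOD replicate 2, 2 without NOD replicate 3, and 3 without NOD replicate 1. Calls over all tested genes also fell, from 1084 to 107 without NOD_insHEL replicate 1, where the chaperones' median log2 difference was 0.53. Every log2 difference stayed above 0 in these fits, with Hspa5 between 0.70 and 0.87 and Sdf2l1 between 0.72 and 0.98. The call was lost in 10 of the 12 fits that left out 1 library for Sdf2l1, in 8 for Calr, 6 for Dnajb9, 5 for Hyou1, 4 for Dnajc3, 3 for Hsp90b1 and 1 for Hspa5. In B10_insHEL against B10 between 7 and 9 of 10 passed. There Creld2 was lost without any 1 of the 3 B10 libraries (log2 difference 1.12 to 1.79 over all 12 fits), and Dnajb9 without B10_insHEL replicate 3 or B10 replicate 1 (0.96 to 1.44).

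Whether the transgene difference itself depended on strain was tested as an interaction, the NOD difference minus the B10 difference. None of the 10 chaperones passed, against 9 of 15352 genes in all (0.0586%), and 1, Dnajb11, had an unadjusted p under 0.05. DESeq2 also called 0. For 9 of 10 chaperones the interaction was below 0, with Canx at 0.10, while the median of all tested genes was −0.0069. The chaperones' median was −0.23, but −0.0054 without B10_insHEL replicate 3 and −0.10 with the acinar covariate. The 10 genes vary together over the libraries, so this count does not stand for 10 separate results. The Hspa5 value was −0.23 with a 95% interval from −0.69 to 0.23. Dnajb11 had −0.61 with an interval from −1.15 to −0.080, and Creld2 had −0.86 with an interval from −1.84 to 0.11 (adjusted p = 0.350 and 0.467). The intervals of Hsp90b1 (−0.44 to 0.27) and Canx (−0.28 to 0.48) were narrower.

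The other 9 chaperones were also set against Hspa5 in the same library, which removes the scaling of the library. Hspa5 itself was 2.02-fold higher with the transgene in B10 and 1.72-fold higher in NOD. A gene that rose less than Hspa5 therefore falls relative to it. Of 18 ratios 6 were separate between groups, all lower with the transgene, though none passed a test. The share of all tested genes that fall relative to Hspa5 was not computed, so the ratios are descriptions. Calr per kb was 57.3, 52.9 and 51.3% of Hspa5 per kb in B10_insHEL replicates 1 to 3, against 70.8, 64.4 and 73.3% in B10. In the other strain it was 64.4, 68.6 and 76.1% in NOD_insHEL and 86.1, 92.0 and 86.0% in NOD. Every transgenic library had less Calr per Hspa5 than every library of its strain without the transgene. Canx showed the same order, with 27.5, 32.4 and 21.04% in B10_insHEL and 46.0, 40.2 and 48.2% in B10. It had 22.1, 28.3 and 25.5% in NOD_insHEL and 37.9, 32.6 and 31.5% in NOD. Hsp90b1 and Dnajb11 also lay wholly lower relative to Hspa5 in NOD_insHEL than in NOD, at 70.2 ± 4.53% and 8.42 ± 0.854% in NOD_insHEL (mean ± SD, n = 3), against 82.6 ± 2.86% and 11.0 ± 0.958% in NOD. The other 12 of 18 ratios overlapped between groups, among them both for Hyou1, Dnajb9, Dnajc3, Sdf2l1 and Creld2. The smallest p that an exact two-sided permutation test allows with 3 against 3 mice is 0.1, which the 6 separate ratios reached, and the lowest value adjusted over the 18 ratios was 0.3.

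**Figure D4:**
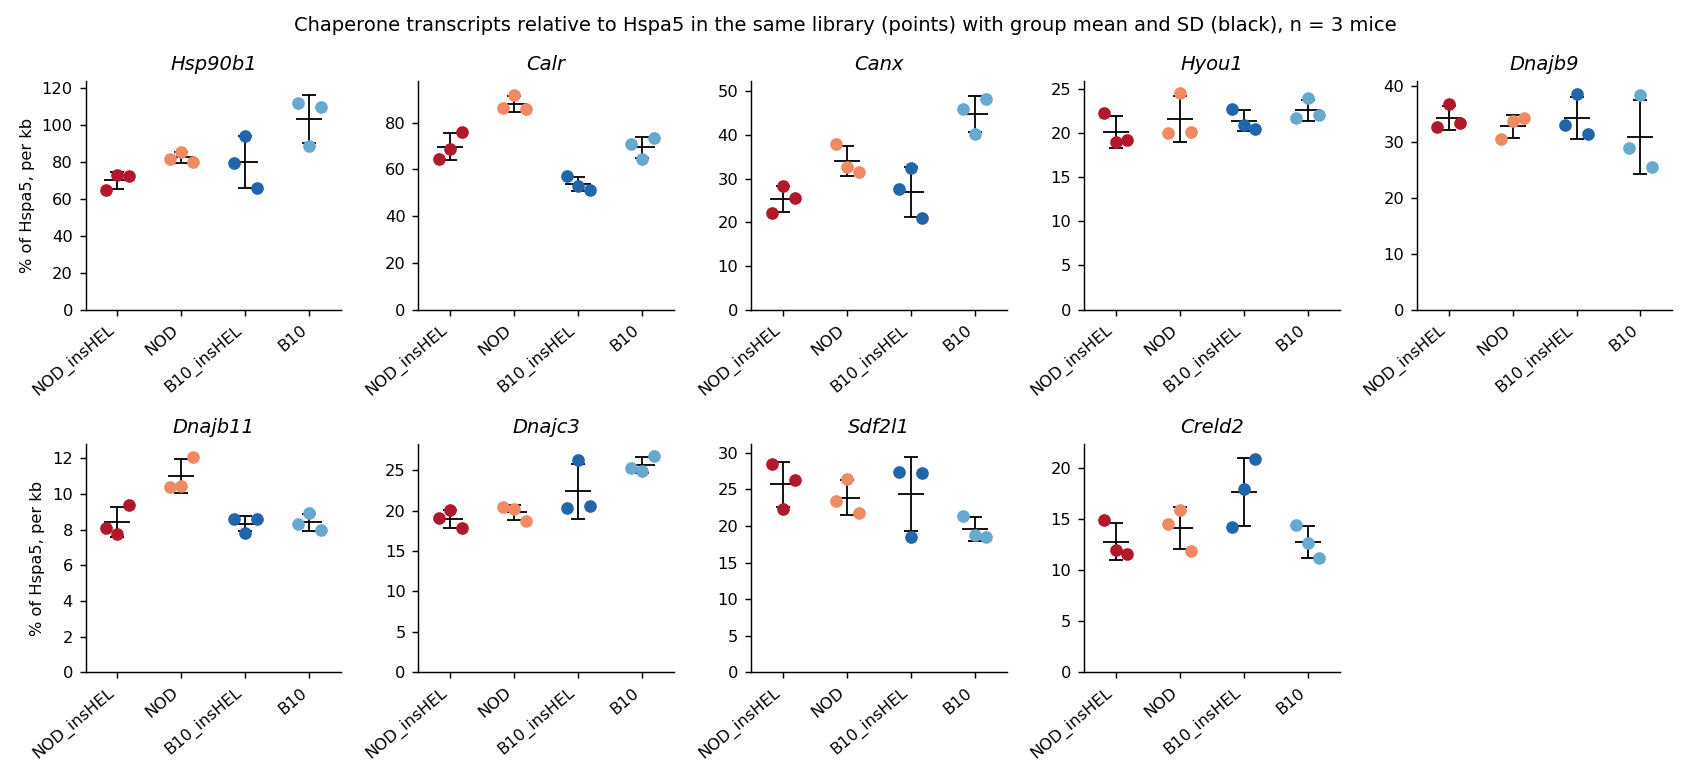
Level of each of the other 9 chaperones per kb as a percentage of Hspa5 per kb in the same library (vertical axes, from 0). Points are mice, and black marks are the group mean and SD (n = 3). Calr and Canx lie lower with the transgene in both strains, at 51.3 to 57.3% and 21.04 to 32.4% in B10_insHEL against 64.4 to 73.3% and 40.2 to 48.2% in B10.

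The strain comparisons ask how islets of the diabetes-prone NOD background differ from those of B10 in Rag-/- mice. Reads of both backgrounds were aligned to the same reference, GRCm38. The part of strain sequence differences in the counts was not tested, here or in the other strain comparisons. Between NOD and B10, 3 chaperones were lower in NOD and 0 higher, against 14.9% of all tested genes called lower, 13.5% called higher and 28.4% called in either direction. These were Hsp90b1 (log2 difference −0.41, SE 0.12, adjusted p = 0.0143), Canx (log2 difference −0.49, SE 0.13, adjusted p = 0.00766) and Dnajc3 (log2 difference −0.47, SE 0.16, adjusted p = 0.0331), and in each the 3 NOD libraries lay below the 3 B10 ones, as in 23.8% of all tested genes. The members' share called in either direction, 3 in 10, is close to that of all genes. Hspa5 was at 1581 ± 71.7 CPM in NOD and 1696 ± 228 CPM in B10 (mean ± SD, n = 3) and did not pass (log2 difference −0.10, 95% interval −0.43 to 0.22). Calr lay wholly higher in NOD than in B10 without passing (log2 difference 0.25, adjusted p = 0.157). Dnajc3 lost its call without any 1 of the 3 NOD libraries or of B10 replicates 2 and 3, with a log2 difference of −0.55 to −0.40, and with the acinar covariate 0 of 10 passed. In that fit the log2 differences were −0.31 (SE 0.18) for Hsp90b1, −0.38 (SE 0.19) for Canx and −0.43 (SE 0.24) for Dnajc3. Of the 19 acinar markers, 13 fell in NOD against B10 and lay wholly below B10 with the rest. Of 8 endothelial markers 7 were higher in NOD than in B10, with a median log2 difference of 0.67, as were 2 of 7 duct markers, and their part in the result was not tested.

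Between NOD_insHEL and B10_insHEL, 2 chaperones were lower in NOD_insHEL and 0 higher, against 6.5% of all tested genes called lower, 5.55% called higher and 12.1% called in either direction. They were again Hsp90b1 (log2 difference −0.50, SE 0.12, adjusted p = 0.00848) and Dnajc3 (log2 difference −0.55, SE 0.16, adjusted p = 0.0284). Hsp90b1 did not overlap between the groups (14.2% of all tested genes lay wholly lower), whereas Dnajc3 did, its highest NOD_insHEL library lying above the lowest B10_insHEL one. Canx came close (log2 difference −0.39, SE 0.13, adjusted p = 0.0548). Of the other 7, Calr was at 1281 ± 42.5 CPM in NOD_insHEL and 1244 ± 285 CPM in B10_insHEL, and the remaining 6 had log2 differences from −0.82 (Creld2) to −0.26 (Sdf2l1) without passing. The count was 5 without B10_insHEL replicate 1, the lowest of its group for 9 of 10 members, 1 without B10_insHEL replicate 2, B10_insHEL replicate 3 or NOD_insHEL replicate 3, and 0 when only these 2 groups were fitted, where Hsp90b1 had a log2 difference of −0.49 (SE 0.16) and Dnajc3 −0.54 (SE 0.18). Dnajc3 lost its call without NOD_insHEL replicate 2 or 3 or B10_insHEL replicate 2 or 3. The acinar markers had a median log2 difference of −3.71 here, with B10_insHEL replicate 2 at 2501 CPM in sum, and 0 of 19 passed, while 2 of 8 endothelial markers were lower in NOD_insHEL. Averaged over the transgene, Hsp90b1, Dnajc3 and Canx were lower in the NOD background, at log2 differences of −0.46, −0.51 and −0.44 (adjusted p = 3.47e-04, 0.00184 and 9.24e-04), beside 17.6% of all genes called lower, 15.7% called higher and 33.3% called in either direction. These 3 also passed in each fit that left out 1 library, and 1 of them, Hsp90b1, passed with the acinar covariate, where the log2 differences were −0.39 for Hsp90b1, −0.48 for Dnajc3 and −0.36 for Canx (adjusted p = 0.0370, 0.0568 and 0.0643). In the averaged comparison 19 of 19 acinar markers were lower in the NOD background, and 6 of 8 endothelial markers were higher and 1 lower.

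The other genes of ER folding that passed with the transgene were all higher. Among 24 other ER chaperones, cochaperones and lectin-cycle genes, 10 were higher in B10_insHEL than in B10 and 0 lower, and 5 were higher in NOD_insHEL than in NOD and 0 lower. Over all tested genes 4.09% were called higher and 2.76% lower in B10_insHEL, and 3.88% higher and 3.18% lower in NOD_insHEL. Manf, a secreted ER stress factor, was at 651 ± 176 CPM in B10_insHEL and 296 ± 41.7 CPM in B10 (mean ± SD, n = 3; log2 difference 1.14, SE 0.16, adjusted p = 4.07e-04). It was at 567 ± 54.0 CPM in NOD_insHEL and 383 ± 39.2 CPM in NOD (log2 difference 0.57, SE 0.15, adjusted p = 0.0340). The prolyl isomerase genes Fkbp11 (log2 difference 1.37, SE 0.30, adjusted p = 0.0283) and Ppib (log2 difference 0.80, SE 0.17, adjusted p = 0.00980) were also higher in B10_insHEL, although 30.8% of the words of Ppib are shared with other genes. In NOD_insHEL the Hsp70-like Hspa13 (log2 difference 0.76, SE 0.16, adjusted p = 0.00950) and the glucosidase Mogs (log2 difference 0.65, SE 0.14, adjusted p = 0.00912), which trims the glycans that Calr and Canx bind, had the highest log2 differences among those that passed.

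Of 16 disulfide isomerases and ER oxidases 7 were higher and 0 lower in each transgene comparison, against 4.09% of all tested genes called higher in B10_insHEL and 3.88% in NOD_insHEL. Pdia4 was at 431 ± 130.01 CPM in B10_insHEL and 216 ± 34.2 CPM in B10 (log2 difference 1.00, SE 0.17, adjusted p = 0.00260). It was at 303 ± 34.3 CPM in NOD_insHEL and 197 ± 2.50 CPM in NOD (log2 difference 0.63, SE 0.17, adjusted p = 0.0377). Pdia6 (log2 difference 0.76, SE 0.14, adjusted p = 0.00229) and P4hb (log2 difference 0.72, SE 0.13, adjusted p = 0.00267) were the next in B10, and Pdia3, the isomerase that works with Calr and Canx, was highest in NOD (log2 difference 0.70, SE 0.12, adjusted p = 0.00432) with Erp44, which retains oxidases in the early secretory pathway, next (log2 difference 0.67, SE 0.15, adjusted p = 0.0110).

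Genes of ER-associated degradation, which moves misfolded chains out to the proteasome, counted 7 higher of 15 in B10_insHEL and 2 of 15 in NOD_insHEL, with 0 lower in both. The shares of all tested genes called higher, which apply to the sensors below as well, were 4.09% and 3.88%. Derl3, part of the exit channel, was at 47.5 ± 14.1 CPM in B10_insHEL and 13.8 ± 2.59 CPM in B10 (log2 difference 1.78, SE 0.39, adjusted p = 0.0282). Edem2, a mannosidase that marks glycoproteins for exit, was also higher in B10_insHEL (log2 difference 0.85, SE 0.12, adjusted p = 4.45e-04). In NOD_insHEL the lectin gene Erlec1 (log2 difference 0.65, SE 0.12, adjusted p = 0.00508) and the mannosidase-like Edem3 (log2 difference 0.65, SE 0.11, adjusted p = 0.00432) were the 2 that passed. Vcp passed in B10 as well (log2 difference 0.66, SE 0.17, adjusted p = 0.0257), but 43.6% of its words are shared, chiefly with Vcp-rs. Of 15 sensors and transducers of the unfolded protein response, 3 were higher in B10_insHEL, namely Atf6 (log2 difference 0.59, SE 0.13, adjusted p = 0.00937), its relative Atf6b (log2 difference 0.55, SE 0.16, adjusted p = 0.0455) and Wfs1 (log2 difference 0.45, SE 0.13, adjusted p = 0.0436). In NOD_insHEL the protease gene Mbtps2 was the 1 that passed (log2 difference 0.58, SE 0.16, adjusted p = 0.0365), with 28.9% of its words shared. Xbp1 did not pass in B10 (log2 difference 0.27, adjusted p = 0.127) or NOD (log2 difference 0.086, adjusted p = 0.670), nor did Ddit3, a marker of prolonged stress (log2 difference −0.16, adjusted p = 0.818 in B10 and log2 difference −0.44, adjusted p = 0.473 in NOD), both being named here for their roles after their values were seen. Counts per gene do not separate the transcript forms of a gene, so they do not show the activity of Xbp1.

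Chaperones outside the ER gave other counts. Of 15 cytosolic and mitochondrial chaperones 1 was higher in B10_insHEL than in B10 (Hspe1, log2 difference 0.78, SE 0.20, adjusted p = 0.0278) and 0 in NOD_insHEL than in NOD, and 0 were lower in both. This is close to the shares of all tested genes called higher, 4.09% and 3.88%. Of the 50-base words of Hspe1, 22.8% are shared with other genes. The medians of the lists, from the 10 ER chaperones to the cytosolic list, were 0.96, 0.42, 0.25, 0.40, 0.14 and 0.24 in B10 and 0.69, 0.23, 0.36, 0.30, 0.11 and 0.070 in NOD, beside those of all genes given above. These lists were described by their counts and not tested against each other, and every count moves with the libraries. When 1 library was left out, the B10 counts ranged from 3 to 11 for the other ER chaperones (3, 4, 6 and 5 without B10 replicate 3, B10 replicate 1, B10 replicate 2 and B10_insHEL replicate 3), 4 to 8 for the isomerases (4 without B10_insHEL replicate 3 or B10 replicate 1), 1 to 9 for degradation (1 without B10_insHEL replicate 3 or B10 replicate 1 or 3, and 4 without B10 replicate 2) and 0 to 4 for the sensors (0 without B10 replicate 1, and 1 without any 1 of 7 other libraries). The NOD counts ranged from 0 to 7, 1 to 10, 1 to 4 and 0 to 1 for these lists in that order, each lowest without NOD_insHEL replicate 1. Calls over all tested genes were also lowest there, at 107 against 1084 with all libraries. Without NOD_insHEL replicate 2 or NOD replicate 2 or 3 they were 1, 2 and 2 for the other ER chaperones and 1, 3 and 1 for the isomerases. With the acinar covariate, B10_insHEL against B10 called 1 of the other ER chaperones, 0 isomerases, 1 degradation gene, 1 sensor and 0 cytosolic chaperones, while NOD_insHEL against NOD called 6, 6, 2, 1 and 0. The single cytosolic call in B10 was lost without B10_insHEL replicate 2 or 3 or any 1 of the B10 libraries.

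**Figure D5:**
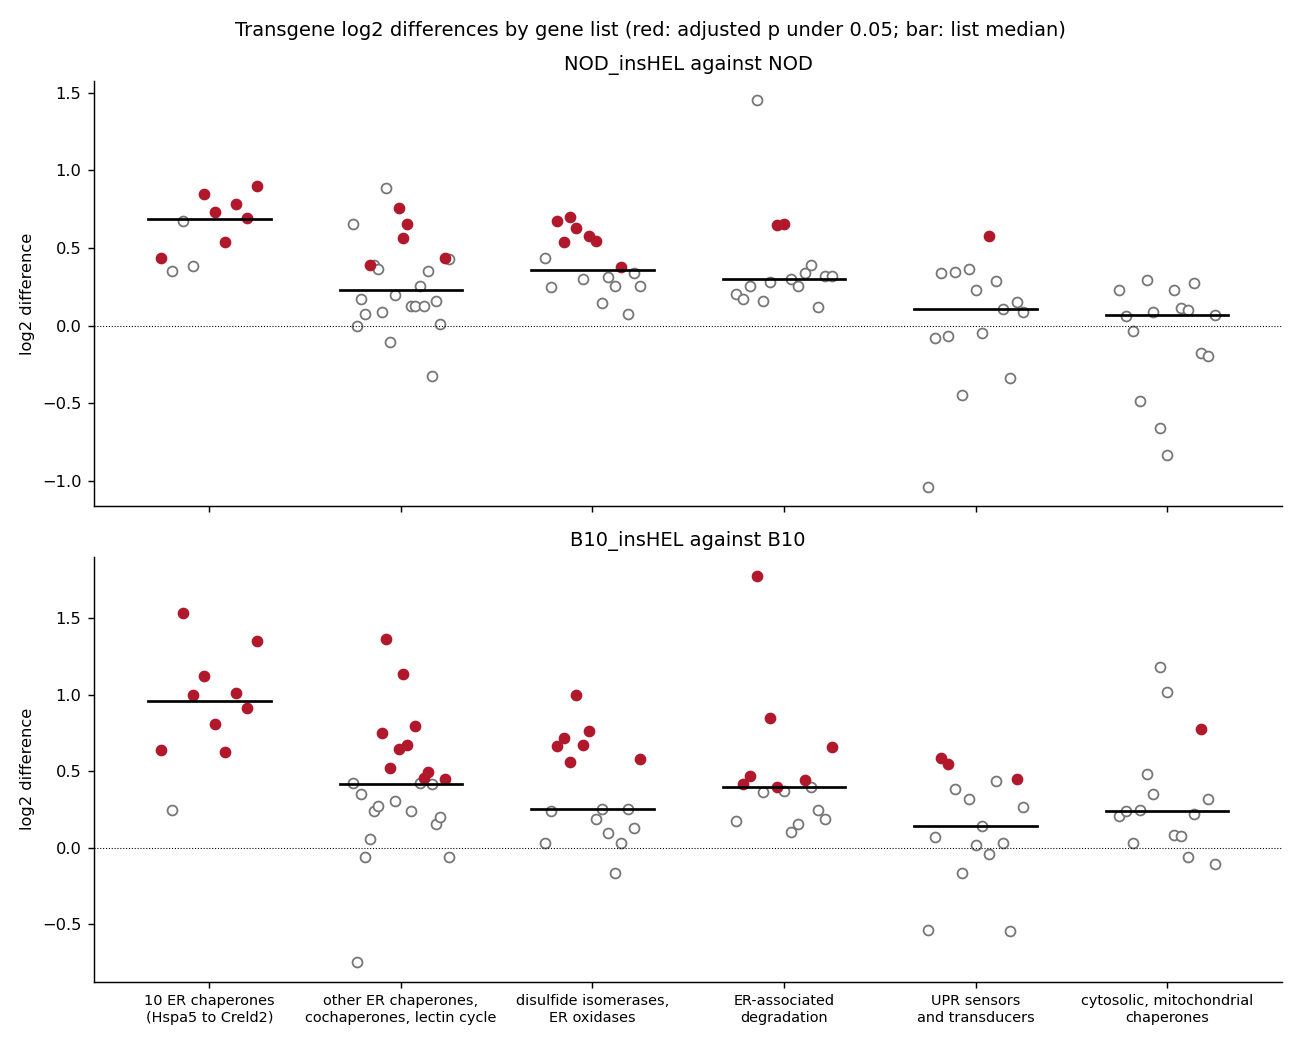
Log2 differences with the transgene (vertical axes) for the 10 ER chaperones and 5 related gene lists, in NOD_insHEL against NOD (top) and B10_insHEL against B10 (bottom). Each point is a gene, red where the adjusted p was under 0.05, and black bars are list medians. All red points lie above 0, and the 10 chaperones have the highest median in both panels, 0.69 in NOD and 0.96 in B10.

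Averaged over the transgene, 2 of the 24 other ER chaperones were higher in the NOD background and 6 lower, with Fkbp2 higher (log2 difference 0.48, SE 0.10, adjusted p = 9.70e-04) and Sil1, the other nucleotide exchange factor of BiP, lower (log2 difference −0.46, SE 0.10, adjusted p = 9.91e-04), as was Uggt2, a folding sensor of the lectin cycle (log2 difference −0.46, SE 0.10, adjusted p = 0.00152). Over all tested genes 15.7% were called higher in this comparison, 17.6% lower and 33.3% in either direction. Among isomerases and oxidases 1 was higher and 4 lower. Calls in either direction, 8 of 24 other ER chaperones and 5 of 16 isomerases and oxidases, were close to the share of all genes. Qsox1 was at 53.8 ± 6.96 CPM in NOD_insHEL, 49.2 ± 3.93 CPM in NOD, 123 ± 20.8 CPM in B10_insHEL and 103 ± 2.98 CPM in B10, and every library of the NOD background lay below every B10 one (log2 difference −1.12, SE 0.089, adjusted p = 5.50e-09). Ero1l, which encodes an ER oxidase, was lower (log2 difference −0.54, SE 0.12, adjusted p = 0.00244) and Prdx4 higher (log2 difference 0.41, SE 0.10, adjusted p = 0.00326). Of the degradation genes 3 were higher and 5 lower, with Sel1l, the scaffold of the Hrd1 ligase, lower (log2 difference −1.001, SE 0.11, adjusted p = 1.07e-06), Edem2 higher (log2 difference 0.84, SE 0.087, adjusted p = 2.69e-07) and Vcp lower (log2 difference −2.41, SE 0.14, adjusted p = 2.99e-10) under the same limit on shared reads. Of the sensors and transducers 0 were higher and 6 lower, and they included the 3 sensors that BiP binds: Ern1 (log2 difference −0.77, SE 0.13, adjusted p = 2.66e-04), Eif2ak3 (log2 difference −0.70, SE 0.11, adjusted p = 8.66e-05) and Atf6 (log2 difference −0.56, SE 0.093, adjusted p = 9.44e-05). With the acinar covariate the lists, in the order above, had 2, 4, 5 and 4 calls. When 1 library was left out and no covariate used, the lists ranged from 6 to 9, 3 to 7, 7 to 9 and 5 to 8 calls, and the isomerases had 3 without B10_insHEL replicate 3.

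Within a group the same mouse was often the highest or the lowest for most of the genes. B10_insHEL replicate 3 was the highest of its group for 9 of the 10 chaperones and replicate 1 the lowest for 9. B10 replicate 2 was the highest of its group for 9, and NOD_insHEL replicate 3, the shallowest library, was the lowest of its group for 8. The coefficient of variation over 3 mice, taken as the median of the 10 genes, was 12.98% in NOD_insHEL, 6.39% in NOD, 24.5% in B10_insHEL and 12.6% in B10. Across the 12 libraries, the 45 pairs of chaperones had Pearson correlations of log2 CPM from 0.30 to 0.98 with a median of 0.88, and from −0.042 to 0.94 once the group means were removed. The highest pair was Hsp90b1 with Dnajc3 (0.98) and the lowest was Calr with Canx (0.30). These points share library and group and are descriptions.

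Among 9590 genes with a mean of at least 10 CPM, those whose log2 CPM followed Hspa5 most closely over the 12 libraries were Bet1, Ssr1, Arf4, Sec22b and Pak3, with Pearson correlations from 0.98 to 0.99. Bet1 and Sec22b encode membrane fusion proteins of transport between ER and Golgi, Ssr1 encodes a subunit of the translocon-associated complex, Arf4 a small GTPase of the Golgi and Pak3 a protein kinase. Bet1 was at 130.24 ± 17.6 CPM in NOD_insHEL, 80.3 ± 1.54 CPM in NOD, 156 ± 36.4 CPM in B10_insHEL and 82.5 ± 9.50 CPM in B10 (mean ± SD, n = 3). Pak3 was at 220.4 ± 32.6 CPM in NOD_insHEL, 110.4 ± 11.0 CPM in NOD, 316 ± 64.5 CPM in B10_insHEL and 125 ± 19.0 CPM in B10. The genes most like the mean of the 10 chaperones were Pdia4, Arf4, Papss1, Sec22b and Bet1, with correlations from 0.98 to 0.99.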

How the data were processed

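The authors deposited 1 table of raw counts per gene for 12 islet libraries. Reads were processed with cutadapt, TopHat2 2.0.8b, HTSeq and DESeq on GRCm38, per the submitters' processing notes; strand setting, counting mode and annotation release are not given in the sources used here. From the counts, 15352 genes passed edgeR's filter by group. One edgeR 4.0.16 quasi-likelihood model (R 4.3.3, limma 3.58.1, robust, TMM) with 4 group means over 12 libraries gave 6 contrasts, with Benjamini-Hochberg adjustment over all tested genes at 0.05. Data of 15352 genes were simulated for NOD against B10. Of the tested genes changed by a log2 of 1, 84.4% were recovered, and of those changed by 2, 100%. Among the genes called, 5.24% were false. Recovery at each gene's own spread between mice was not tested. Alternatives were DESeq2 1.42.0, other scaling and filters, covariates, a replicate block, thinning to the smallest library and leaving out libraries. Symbols, positions and lengths came from GENCODE vM21. Members, gene lists and tests were chosen with earlier results of these data known. Named genes were all members, up to 3 past the threshold per list with the largest absolute log2 difference in the averaged strain and each transgene comparison, and the 5 most correlated genes; others are marked where named. Replicate numbers did not pair samples: 0 of 18 same-numbered pairs correlated above 0.1 (−0.095 to 0.080).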

Additional observations from a re-analysis of the deposited data

Results flagged for a closer look

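The strain by transgene difference of 9 genes in the whole table passed the test, none of them an ER chaperone. One, Flt1, a receptor of endothelial cells that was on the endothelial marker list, moved in opposite directions in the 2 strains. Its mean was 218 CPM in NOD_insHEL against 299 CPM in NOD, and 280 CPM in B10_insHEL against 217 CPM in B10. The log2 difference was −0.45 in NOD and 0.37 in B10, and both passed (adjusted p = 0.0185 and 0.0432). The NOD difference minus the B10 difference was −0.82 on the log2 scale (edgeR quasi-likelihood test, adjusted p = 0.0490). All 8 endothelial markers had a value below 0 in this difference, from −0.82 to −0.42 with a median of −0.65, and Flt1 was the 1 of them that passed.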

How the results depend on the processing

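Of 720 member values refitted without 1 library, 639 kept direction and side of the threshold, 51 fell short of it, 11 passed it anew, 19 that had not passed changed sign, and 0 that had passed reversed. Under the other alternatives the counts were 471, 32, 9, 8 and 0 of 520. With the acinar covariate, members called were 1 in B10_insHEL against B10 (all genes 239), 0 in NOD against B10 (1276), 1 in NOD_insHEL against B10_insHEL and 1 in the averaged strain difference (2320), and 36 genes in all passed the interaction. The causes were not tested. Without the filter, 4 members were called in NOD_insHEL against B10_insHEL, 5 in the averaged strain difference and 161 genes in the interaction. With only the compared groups fitted, NOD_insHEL against B10_insHEL called 0 members and 1197 genes, and B10_insHEL against B10 called 646 genes. Thinned to the smallest library, NOD_insHEL against NOD called 4 members and 487 genes, and the counts of all genes were 2514 in NOD against B10, 1113 in NOD_insHEL against B10_insHEL, 3235 averaged and 627 in B10_insHEL against B10; here fewer reads entered. Without B10_insHEL replicate 2 and NOD_insHEL replicate 3 together, chosen after seeing the data, NOD_insHEL against B10_insHEL called 0 members, and all genes called were 1754 in B10_insHEL against B10, 1964 in NOD_insHEL against NOD and 283 in the interaction. The interaction called 5 genes with islet number as covariate and 67 with DESeq2.

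Without 1 library each, members called ranged from 7 to 9 in B10_insHEL against B10 (all genes 428 to 1566), 0 to 8 in NOD_insHEL against NOD (107 to 1522), 2 to 3 in NOD against B10 (2868 to 4863), 1 to 5 in NOD_insHEL against B10_insHEL (1344 to 1978) and 3 to 6 averaged (4301 to 5245), and the interaction ranged from 2 to 162 genes. With the replicate number as a block, which the check of the numbers did not bear out, members called were 8 in B10_insHEL against B10, 6 in NOD_insHEL against NOD, 3 in NOD against B10, 2 in NOD_insHEL against B10_insHEL, 3 averaged and 0 in the interaction. Depth limits NOD_insHEL most, since its replicate 3 had 2212062 counts.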

Other observations

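Averaged over the transgene, 9 of 15 cytosolic and mitochondrial chaperones were lower in the NOD background and 0 higher (edgeR quasi-likelihood test), against 17.6% of all tested genes called lower. Hspa8, the constitutive cytosolic Hsp70, had a log2 difference of −3.19, Hsph1, its nucleotide exchange factor, −1.52, and Hsp90aa1, the inducible cytosolic Hsp90, −1.32. Of the 50-base words of their transcripts, 39.4% of Hspa8 and 47.5% of Hsp90aa1 also occur in other annotated genes, so the size of these 2 differences is uncertain. Hsph1 has 0 such words. Others on the list share words too, with 66.3% for Hspa1a, 62.3% for Hspa1b, 42.1% for Hspd1, 22.8% for Hspe1 and 20.6% for Dnaja1. The count of 9 is therefore uncertain as well. The part of strain sequence differences in read alignment was not tested. The count was 4 of 15 without NOD_insHEL replicate 1, NOD replicate 2 or NOD replicate 3, 5 without NOD_insHEL replicate 3, B10_insHEL replicate 2, B10_insHEL replicate 3, B10 replicate 1 or B10 replicate 2, and 3 with the mean acinar marker level as a covariate.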
